A study of Mus musculus with 30 samples.

Results

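The 8 genes described here encode the interleukin-6 (IL-6) family cytokines IL-6 (Il6), IL-11 (Il11), leukaemia inhibitory factor (Lif) and oncostatin M (Osm), the receptor subunit that these cytokines share (Il6st, or gp130), and the colony-stimulating factors M-CSF (Csf1), GM-CSF (Csf2) and G-CSF (Csf3). They were listed by name and not by a measured value, but with earlier results of these data known. All 8 were found among the 45706 genes of the tables. All 8 also passed the filter for testing, an average over the 30 libraries of 1 TPM or more (TPM, transcripts scaled to length and to the library total), which 12614 genes passed; Csf2 and Csf3 did so through the groups in which they were high. RNA was sequenced from osteoclast cultures of C57BL/6J mice, wild type or lacking Terc, the RNA template of telomerase, to ask how gene expression differs with age and Terc loss in cells grown on bone. Bone marrow macrophages were cultured on bone slices with M-CSF at 25 ng/ml and RANKL at 100 ng/ml, and every group received both factors, so Csf1 transcripts are those made by the cells and not the factor added to the medium. Cultures were harvested after 2 days or when large multinucleated cells were present.

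The 30 libraries fall into 10 groups of 3. There were 2-day cultures of wild-type mice aged 6 and 20 months, and large-cell cultures of wild-type mice aged 1, 6 and 20 months and of Terc-/- mice aged 1 and 6 months. Another 3 large-cell groups carry an extra mark in their titles, which the labels do not explain: "gaiwei" on 1-month wild-type libraries and "519" on 1-month and 6-month Terc-/- libraries. These 9 libraries are called marked below, and the other 15 large-cell libraries unmarked. The labels do not give the sex of the mice, the generation of the Terc-/- mice, or whether the 3 libraries of a group came from separate mice, so the p-values measure the spread between libraries, which may be technical.

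As background, IL-6 family cytokines bind receptors that pair with gp130 and signal through JAK kinases and the transcription factor STAT3, which also switches on the feedback inhibitor Socs3. In bone, IL-6, IL-11, LIF and oncostatin M are known to act on osteoblasts and stromal cells, which then raise RANKL and favour osteoclast formation. M-CSF acts through its receptor, encoded by Csf1r, and is required for the survival and proliferation of osteoclast precursors. GM-CSF diverts these precursors towards other myeloid cells, and G-CSF drives granulocyte production. Macrophages make IL-6, oncostatin M, GM-CSF and G-CSF when activated, whereas stromal cells and osteoblasts are major sources of M-CSF, IL-11 and LIF.

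Promoter windows from RefSeq (GRCm38.p6, 250 bases before to 50 bases from the start site, 300 bases in all) matched 6 of the 8 genes by symbol; Osm and Csf3 did not match. The windows of Il6, Il11, Lif and Csf1 are shown because they hold matches to motifs of NF-kB or AP-1, transcription factors of activated macrophages and stromal cells, in genes whose levels moved apart in the results below. Capitals mark each match, and positions count from the start site.
Il6, chr5:30012864-30013163, plus strand: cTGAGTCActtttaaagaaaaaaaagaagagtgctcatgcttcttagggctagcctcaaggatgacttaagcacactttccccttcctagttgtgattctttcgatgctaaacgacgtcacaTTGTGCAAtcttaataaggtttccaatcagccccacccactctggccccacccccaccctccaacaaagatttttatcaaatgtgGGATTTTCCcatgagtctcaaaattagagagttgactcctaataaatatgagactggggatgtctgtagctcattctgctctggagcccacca
Il11, chr7:4778092-4778391, minus strand, at a second RefSeq start site 4718 bases into the gene: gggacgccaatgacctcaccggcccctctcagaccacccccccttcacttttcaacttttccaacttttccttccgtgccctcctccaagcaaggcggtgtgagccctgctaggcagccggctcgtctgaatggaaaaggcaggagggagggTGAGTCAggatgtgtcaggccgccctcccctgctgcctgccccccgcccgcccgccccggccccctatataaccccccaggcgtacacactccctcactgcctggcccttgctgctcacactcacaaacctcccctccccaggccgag
Lif, chr11:4257318-4257617, plus strand: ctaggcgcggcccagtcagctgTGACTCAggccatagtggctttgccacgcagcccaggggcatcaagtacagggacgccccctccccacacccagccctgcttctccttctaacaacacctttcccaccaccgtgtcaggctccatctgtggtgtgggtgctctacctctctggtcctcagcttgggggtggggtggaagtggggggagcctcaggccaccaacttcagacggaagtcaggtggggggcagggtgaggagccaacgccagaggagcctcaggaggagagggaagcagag
Csf1, chr3:107760420-107760719, minus strand: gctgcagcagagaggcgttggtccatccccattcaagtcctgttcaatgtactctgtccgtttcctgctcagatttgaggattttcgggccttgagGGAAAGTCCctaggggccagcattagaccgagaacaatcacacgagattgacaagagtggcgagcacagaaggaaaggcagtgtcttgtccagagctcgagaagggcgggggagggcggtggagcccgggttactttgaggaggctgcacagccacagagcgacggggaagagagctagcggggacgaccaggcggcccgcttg
The NF-kB core GGANTTTCC was found in the Il6 window from -43 to -35 and in the Csf1 window, on the opposite strand, from -154 to -146; 1.3% of 32817 promoter windows of this length hold it on either strand. The AP-1 motif TGANTCA, in 7.8% of windows, lay from -249 to -243 in Il6, from -98 to -92 in the Il11 window shown and from -228 to -222 in Lif. The Il6 window also held the C/EBP motif TTGCNNAA on the opposite strand from -128 to -121, which 10.8% of windows hold. The window of Csf2 held only a C/EBP match, and the first Il11 window and that of Il6st held none of the 7 motifs searched, which also included CRE (TGACGTCA), STAT (TTCNNNGAA), the TATA box (TATAAA) and an ETS motif (GAGGAAG). The RefSeq start site used for Csf2 lies at -232 from the start of the gene in GENCODE. Its window ends before that gene start, so the bases just upstream of the gene were not searched. No motif of those searched overlapped another in these windows. These are matches of letters in the reference and were not measured as binding sites. By the gene annotation (GENCODE M21, GRCm38), Osm (chr11:4236420-4241026) and Lif (chr11:4257557-4272514) are neighbours on the plus strand, 16530 bases apart, and 4 of the 8 genes lie on chromosome 11.

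Facts of the whole series touch several results. The inactive-X transcript Xist reached at least 46.6 TPM in each wild-type library of 1-month mice without a mark and at most 0.254 TPM in the other 27, so every comparison with that group also sets libraries with Xist against libraries without it. The 6-month wild-type large-cell library numbered 2 stands apart, with a mean correlation of 0.909 with the other libraries of its group against 0.932 to 0.991 for the other 29 libraries; values without it are given where they change a call. Terc itself was at 0 in all 12 Terc-/- libraries but above 0 in only 3 of 18 wild-type libraries (at most 1.13 TPM), so it says little about the labels. Summed TPM of 10 osteoclast markers was 4626 to 28145 in the unmarked large-cell libraries, 350.2 to 797 in the 2-day libraries and 659 to 2158 in the marked libraries, with Calcr, the calcitonin receptor, at 0 in all libraries of the 519 1-month and the 6-month 2-day groups. The marked libraries therefore lack the high osteoclast marker levels of the other large-cell cultures. Summed TPM of 8 macrophage markers was 15525 to 72119 over all groups. In bulk RNA, fewer cells of a type and less RNA per cell cannot be told apart, in any of the results below.

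The cytokine genes spanned wide ranges over the groups, and many groups of a member could not be ordered against their nearest neighbours. Csf1 was the most abundant of the 8 on average (a mean of 279 TPM over the 30 libraries, on a scale already adjusted for gene length), followed by Il6 at 103 and Csf3 at 95.8 TPM, the latter 2 because of the marked libraries. When the 10 groups were placed in order of their mean scaled level for each gene, neighbours in that order did not overlap between libraries in 5 of 9 steps for Osm, in 4 for Il6 and for Lif, in 3 for Csf1, Csf2, Csf3 and Il6st, and in 2 for Il11. Fold changes below are differences of log2(scaled TPM + 1) with their standard errors (SE) and Benjamini-Hochberg adjusted p-values over 12614 genes from limma, fitted to all 30 libraries; the added 1 makes the change of genes near 0 look smaller. TPM are as deposited.

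**Figure D1:**
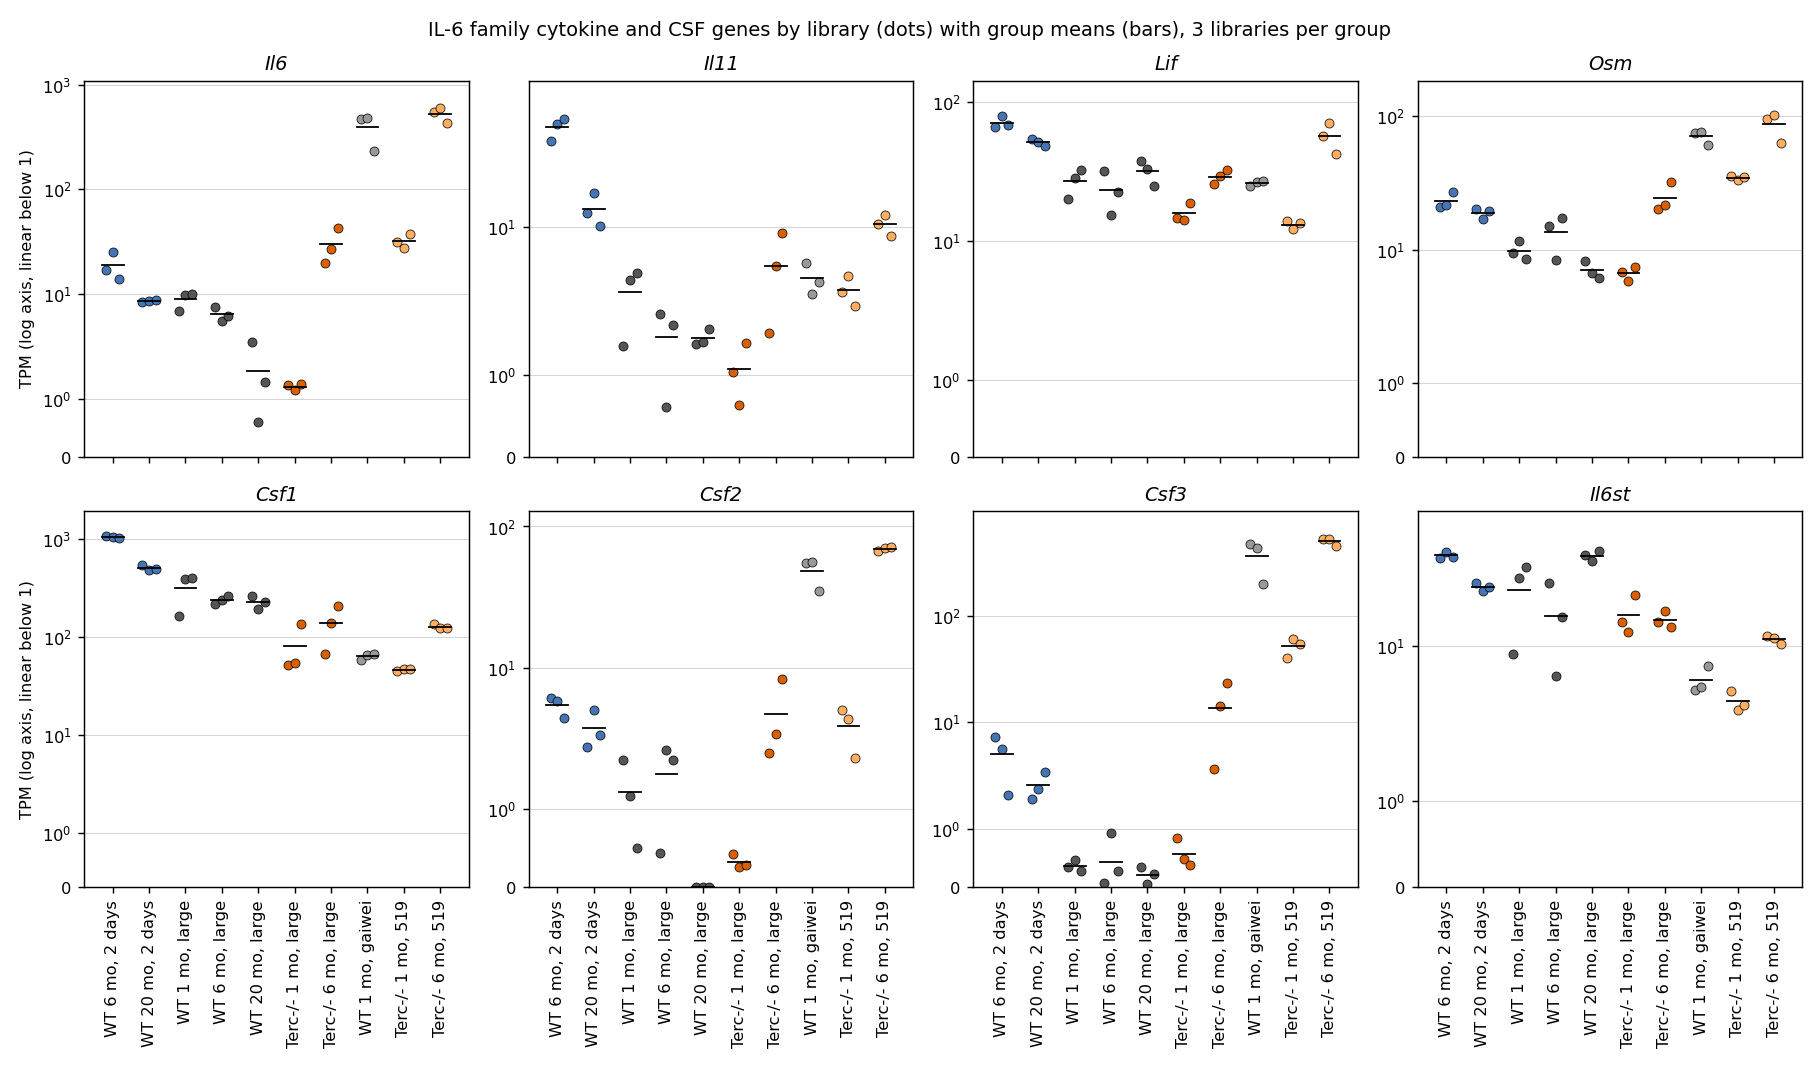
TPM of the 8 genes (log axis, linear below 1 TPM) in the 10 groups; dots are the 3 libraries of a group and bars their mean. Il6, Csf2 and Csf3 were highest in the gaiwei and 519 6-month groups, Csf1 and Il11 in the 6-month 2-day group, and Csf2 was listed at 0 in the 3 libraries of wild-type mice aged 20 months with large cells.

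Il6, the cytokine that gives the family its name, ranged from 0.604 to 601 TPM. In unmarked large-cell cultures of wild-type mice it was at 6.86, 9.85 and 10.1 TPM at 1 month, at 7.46, 5.53 and 6.22 TPM at 6 months, and at 3.51, 0.604 and 1.45 TPM at 20 months. The 20-month libraries lay below all those of younger wild-type mice. Unmarked Terc-/- cultures had 1.34, 1.21 and 1.38 TPM at 1 month and 19.7, 27.2 and 43.0 TPM at 6 months. They were thus the lowest group at 1 month by mean level and above every wild-type large-cell library without a mark at 6 months. The 2-day cultures read 17.1, 25.4 and 13.9 TPM at 6 months and 8.45, 8.63 and 8.75 TPM at 20 months. In the marked groups Il6 was at 473, 484 and 235 TPM in gaiwei wild type, 31.7, 27.6 and 37.8 TPM in 519 Terc-/- at 1 month, and 551, 601 and 426 TPM in 519 Terc-/- at 6 months. Only the 519 1-month group overlapped any unmarked group, that of 6-month Terc-/- mice.

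In Terc-/- against wild-type large-cell cultures, Il6 fell by 2.03 ± 0.32 on the log2 scale at 1 month (adjusted p = 3.64e-05) and rose by 1.88 ± 0.32 at 6 months (adjusted p = 0.000108). The change between these differences was 3.91 ± 0.45 (adjusted p = 6.64e-06). With only the 2 groups in the fit, the 6-month difference kept its size and its adjusted p became 0.0655. Between 1 and 6 months, Il6 rose by 3.65 ± 0.32 in unmarked Terc-/- cultures (adjusted p = 7.5e-08) and by 3.80 ± 0.32 in 519 Terc-/- cultures, a separate set of 6 libraries (adjusted p = 1.35e-08). In wild type the 6-month minus 1-month difference was -0.26 ± 0.32 (95% interval -0.91 to 0.39; adjusted p = 0.607), whereas at 20 months Il6 fell by 1.97 ± 0.32 against 1 month (adjusted p = 7.18e-05) and by 1.70 ± 0.32 against 6 months (adjusted p = 0.000484; 0.0902 with only these groups in the fit). The marked libraries exceeded their unmarked counterparts by 5.84 ± 0.32 (gaiwei, wild type, 1 month), 4.29 ± 0.32 (519, Terc-/-, 1 month) and 4.45 ± 0.32 (519, Terc-/-, 6 months), with adjusted p of 1.21e-12, 2.44e-10 and 2.23e-10. Large-cell against 2-day cultures, Il6 fell by 1.01 ± 0.32 at 6 months (adjusted p = 0.0113; 0.0726 without the 2-day library numbered 2) and by 1.73 ± 0.32 at 20 months (adjusted p = 0.000119).

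Il11, which acts on bone cells and stroma through its own receptor and gp130, was highest in 2-day cultures. It was at 38.5, 49.9 and 54.1 TPM at 6 months and at 12.4, 17.1 and 10.2 TPM at 20 months. All other libraries held 12.2 TPM or less, and the 2-day cultures of 6-month mice lay above every other library. Il11 fell from 2 days to large cells by 3.86 ± 0.33 at 6 months (adjusted p = 3.3e-09) and by 2.18 ± 0.33 at 20 months (adjusted p = 1.03e-05). The fall was smaller at 20 months (difference 1.67 ± 0.46, adjusted p = 0.00974), and the 2-day cultures themselves were lower at 20 than at 6 months, by 1.76 ± 0.33 (adjusted p = 0.000588). Unmarked Terc-/- cultures held 1.04, 0.632 and 1.64 TPM at 1 month and 1.92, 5.47 and 9.11 TPM at 6 months, a rise of 1.47 ± 0.33 (adjusted p = 0.00816) that was not called without the 6-month library numbered 4 (adjusted p = 0.117) or the 1-month library numbered 3 (0.0649), nor with only these groups in the fit (0.18). Against wild type, Il11 fell by 1.02 ± 0.33 at 1 month (adjusted p = 0.02) and rose by 1.07 ± 0.33 at 6 months (adjusted p = 0.016), and the libraries overlapped at both ages. The 1-month call was lost without Terc-/- library 1 or 3 or wild-type library 3 or 4 (adjusted p 0.0517 to 0.092), and the 6-month call without Terc-/- library 2 or 4 or wild-type library 2 (0.0548 to 0.133), with 0.64 as the difference without Terc-/- library 4.

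Lif, which keeps stem cells undifferentiated and acts on osteoblasts, varied least among the 4 ligands, between 12.2 and 79.2 TPM. It was at 66.9, 79.2 and 68.7 TPM in 2-day cultures at 6 months, at 54.7, 51.7 and 48.4 TPM in those at 20 months, and at 57.1, 70.7 and 42.8 TPM in 519 Terc-/- cultures at 6 months. In TPM as deposited these 3 groups lay above all other libraries. On the scaled log2 values, gaiwei wild type (5.11 to 5.38) overlapped the 20-month 2-day cultures (5.32 to 5.46). The 2 lowest group means were those of 1-month Terc-/- cultures (14.6, 14.3 and 18.8 TPM unmarked, and 13.9, 12.2 and 13.5 TPM with the 519 mark). Lif fell from 2 days to large cells by 1.23 ± 0.16 at 6 months (adjusted p = 1.24e-06) and by 0.61 ± 0.16 at 20 months (adjusted p = 0.00343). In 1-month Terc-/- against wild-type cultures it fell by 0.67 ± 0.16 among unmarked libraries (adjusted p = 0.002). It was lower by 1.01 ± 0.16 in 519 Terc-/- than in gaiwei wild-type libraries (adjusted p = 0.000272), where genotype and mark cannot be told apart. With age in Terc-/- cultures it rose by 0.84 ± 0.16 in the unmarked set (adjusted p = 0.00183) and by 1.84 ± 0.16 in the 519 set (adjusted p = 2e-08), and the 519 rise was larger (difference 1.00 ± 0.22, adjusted p = 0.00888). Its rise of 0.55 ± 0.16 in gaiwei against unmarked wild type (adjusted p = 0.00534) turned to -0.009 with TPM as deposited, where the groups overlapped at 25.1 to 27.2 and 20.0 to 32.4 TPM.

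Osm, a product of activated macrophages that acts through gp130 and the receptor encoded by Osmr, was at 5.77 to 11.5 TPM in unmarked large-cell cultures of 1-month and 20-month mice. It read 15.1, 8.32 and 17.3 TPM in wild type and 20.2, 21.6 and 31.8 TPM in Terc-/- cultures at 6 months, which did not overlap. Marked libraries held 33.1 to 102 TPM, above every unmarked library. Their excess was 3.30 ± 0.20 in gaiwei wild type (adjusted p = 4.19e-12), 2.69 ± 0.20 in 519 Terc-/- at 1 month (adjusted p = 2.46e-10) and 2.08 ± 0.20 in 519 Terc-/- at 6 months (adjusted p = 2.1e-08). Osm rose with age in Terc-/- cultures by 1.70 ± 0.20 unmarked (adjusted p = 6.49e-06) and by 1.10 ± 0.20 with the 519 mark (adjusted p = 0.000339). Against wild type at 6 months it rose by 0.71 ± 0.20 (adjusted p = 0.00906; 0.072 without Terc-/- library 4, and 0.235 with only these groups in the fit). In wild-type large-cell cultures Osm fell by 1.09 ± 0.20 from 6 to 20 months (adjusted p = 0.000398; 0.0601 with only these groups). Its fall of 0.56 ± 0.20 from 1 to 20 months (adjusted p = 0.0461) was lost with every alternative setting but the pseudocount and without wild-type 1-month library 1 or 3 or 20-month library 3 or 4 (adjusted p 0.106 to 0.21).

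Il6st, the signal-transducing gp130 subunit, moved with its ligands in only some comparisons. From 1 to 6 months it rose with them in 519 Terc-/- cultures, by 1.04 ± 0.25 (adjusted p = 0.00386). In unmarked Terc-/- cultures the same difference was -0.07 ± 0.25 (adjusted p = 0.985). It was highest in wild-type large-cell cultures at 20 months (38.4, 35.4 and 41.0 TPM) and in 2-day cultures at 6 months (36.8, 40.6 and 37.7 TPM), and lowest in gaiwei wild type (5.24, 5.43 and 7.49 TPM) and 519 Terc-/- at 1 month (5.17, 3.89 and 4.15 TPM). The marked 1-month groups thus held the least Il6st; the fall against unmarked libraries was 1.08 ± 0.25 in wild type (adjusted p = 0.000856) and 1.20 ± 0.25 in Terc-/- (adjusted p = 0.000456). In 519 Terc-/- at 6 months it was at 11.6, 11.4 and 10.3 TPM, a difference of -0.09 ± 0.25 from unmarked libraries (95% interval -0.60 to 0.41; adjusted p = 0.823). Il6st fell from 2 days to large cells by 1.03 ± 0.25 at 6 months (adjusted p = 0.0016; 0.0589 with only these groups in the fit) but rose by 0.71 ± 0.25 at 20 months (adjusted p = 0.0254), and these changes differed by 1.74 ± 0.35 (adjusted p = 0.000819). The 20-month rise was lost without 2-day library 3 or 4 or large-cell library 1 or 4 (adjusted p 0.0524 to 0.0784) and with TPM as deposited (0.64, 0.167). In wild-type large-cell cultures it rose by 1.10 ± 0.25 from 6 to 20 months (adjusted p = 0.00243; 0.141 with only these groups) and by 0.74 ± 0.25 from 1 to 20 months (adjusted p = 0.032). The latter fell to 0.34 (adjusted p = 0.312) without 1-month library 1, which held 8.96 TPM against 27.5 and 32.5 TPM in its group, and was also lost without 20-month library 1, 3 or 4 (0.0632 to 0.0917). Without that same 1-month library, Il6st was lower in 1-month Terc-/- than in wild type by -0.75 (adjusted p = 0.00684) and lower at 6 than at 1 month in wild type by -0.80 (adjusted p = 0.0135), neither of which was called with it.

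Csf1, the gene of M-CSF, was high at 2 days and low in Terc-/- and marked cultures. It was at 1060.2, 1046 and 1024 TPM in 2-day cultures at 6 months and at 546, 478 and 489 TPM in those at 20 months, above all large-cell libraries. Wild-type large-cell cultures had 163, 391 and 401 TPM at 1 month, 217, 238 and 259 TPM at 6 months and 259, 192 and 229 TPM at 20 months. Unmarked Terc-/- cultures had 52.0, 54.1 and 137 TPM at 1 month and 67.1, 138 and 207 TPM at 6 months. In TPM as deposited these lay below the wild-type libraries of the same age in both cases. On the scaled log2 values used in the tests, the 6-month groups overlapped, with Terc-/- library 4 at 7.69 and wild-type library 1 at 7.51. Csf1 fell in Terc-/- against wild type by 1.96 ± 0.32 at 1 month (adjusted p = 6.14e-05) and by 1.07 ± 0.32 at 6 months (adjusted p = 0.015). The 6-month call was lost without Terc-/- library 1 (difference -0.62, adjusted p = 0.154), without wild-type library 2 (0.0629) and with only these groups in the fit (0.309). In the gaiwei libraries Csf1 was at 58.5, 65.0 and 67.5 TPM, a fall of 1.62 ± 0.32 against unmarked wild type (adjusted p = 0.000199). Csf1 fell from 2 days to large cells by 1.72 ± 0.32 at 6 months (adjusted p = 0.000145) and by 1.08 ± 0.32 at 20 months (adjusted p = 0.01). Between 2-day cultures it was lower at 20 than at 6 months by -1.05 ± 0.32 (adjusted p = 0.0253), a call lost without any library of these groups other than 20-month library 2 (0.0555 to 0.0876).

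Stromal markers moved in several of the same comparisons, and their part in the result was not tested. The summed TPM of 10 markers (Col1a1, Col1a2, Col3a1, Pdgfra, Pdgfrb, Dcn, Lum, Postn, Thy1 and Fap) was 113 to 213 in unmarked Terc-/- and 583 to 2667 in unmarked wild type at 1 month, and 277 to 937 against 664 to 1160.1 at 6 months. It was 184 to 304 in gaiwei, 82.2 to 101 in 519 1-month and 281 to 456 in 519 6-month libraries. The 2-day cultures had 1743 to 2104 at 6 months and 711 to 930.4 at 20 months, and wild-type large-cell cultures at 20 months had the highest sums, 3448 to 4383, with only Lum of the 10 at 0. Csf1 and the stromal sum were both low in the unmarked 1-month Terc-/-, the gaiwei and the 519 1-month groups, the last with 44.6 to 47.2 TPM of Csf1. The large-cell group with the highest sum held less Csf1 than the 2-day cultures, which also differ from it in harvest. The markers did not move as a block: 5 of the 8 tested fell and Dcn rose in 1-month Terc-/- against wild type, as in gaiwei against unmarked wild type. In these 2 comparisons 15.5% and 22% of all genes fell, and 15.5% and 24.7% rose. From 1 to 6 months in Terc-/- cultures, where most of the cytokine genes rose, 6 of the 8 rose without a mark and 5 with the 519 mark. Of all genes, 3% and 12.6% rose there. Il6st was about as high in the 20-month large-cell cultures, with the highest stromal sum, as in the 6-month 2-day cultures.

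Csf2, the gene of GM-CSF, was below 10 TPM in all unmarked libraries. In large-cell cultures of wild-type mice it was at 2.24, 1.24 and 0.499 TPM at 1 month and 0.445, 2.60 and 2.23 TPM at 6 months, and it was listed at 0 in the 3 libraries at 20 months, against which no fold is given. Terc-/- cultures had 0.425, 0.264 and 0.284 TPM at 1 month and 2.48, 3.37 and 8.30 TPM at 6 months, a rise of 1.94 ± 0.39 (adjusted p = 0.00319; 0.0546 with only these groups in the fit). Against wild type at 1 month the difference was -0.73 ± 0.39 (adjusted p = 0.159) and was called with a pseudocount of 0.1 (-1.52, adjusted p = 0.0482). The 2-day cultures had 2.73 to 6.13 TPM. In gaiwei wild type Csf2 was at 55.2, 55.9 and 34.8 TPM, in 519 Terc-/- at 4.98, 4.31 and 2.30 TPM at 1 month and at 67.4, 70.1 and 71.0 TPM at 6 months. The gaiwei and 519 6-month groups thus lay far above all others, by 4.95 ± 0.39 (adjusted p = 2.87e-10) and 4.05 ± 0.39 (adjusted p = 2.17e-08) against their unmarked counterparts. The excess with the 519 mark was 2.19 ± 0.39 at 1 month (adjusted p = 8.81e-05), and its growth with age of 1.86 ± 0.55 (adjusted p = 0.0498) was lost without any library of the 4 groups other than the unmarked 6-month library numbered 4 (adjusted p 0.0536 to 0.141). An antisense gene, Gm12223, overlaps Csf2, and no source used here gives the strand setting of the counting, so reads of the pair may not be told apart.

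Csf3, the gene of G-CSF, ranged from 0.0665 to 541 TPM, the widest relative range of the 7 genes above 0 in every library. All unmarked large-cell libraries other than the 6-month Terc-/- ones held less than 1 TPM. Unmarked Terc-/- cultures at 6 months had 3.67, 14.3 and 23.4 TPM, each above all other unmarked large-cell libraries, and 2-day cultures had 1.90 to 7.32 TPM. In the marked groups Csf3 was at 482, 438 and 201 TPM in gaiwei wild type, 40.0, 61.3 and 54.6 TPM in 519 Terc-/- at 1 month and 532, 541 and 456 TPM in 519 Terc-/- at 6 months. The lowest marked library lay above the highest unmarked library. Csf3, like Csf2, passed the filter through its high groups, so the tests against groups below 1 TPM depend on the added 1, and the library values above are the better guide. The excess over unmarked counterparts was 8.50 ± 0.45 in gaiwei wild type (adjusted p = 7.93e-13) and 5.50 ± 0.45 and 5.70 ± 0.45 in 519 Terc-/- at 1 and 6 months (adjusted p = 1.09e-09 and 9.05e-10). Csf3 rose in Terc-/- against wild type at 6 months by 2.98 ± 0.45 (adjusted p = 3.16e-05; 0.104 with only these groups in the fit), whereas the 1-month difference was 0.20 ± 0.45 (95% interval -0.72 to 1.12; adjusted p = 0.77). With age in Terc-/- cultures it rose by 2.90 ± 0.45 unmarked (adjusted p = 0.000215) and by 3.11 ± 0.45 with the 519 mark (adjusted p = 2.6e-05). The unmarked rise had an adjusted p of 0.0592 with only these groups in the fit. It fell from 2 days to large cells by 1.65 ± 0.45 at 6 months (adjusted p = 0.00422) and by 1.34 ± 0.45 at 20 months (adjusted p = 0.0205; 0.0805 without 2-day library 4 and 0.0663 without large-cell library 3).

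**Figure D2:**
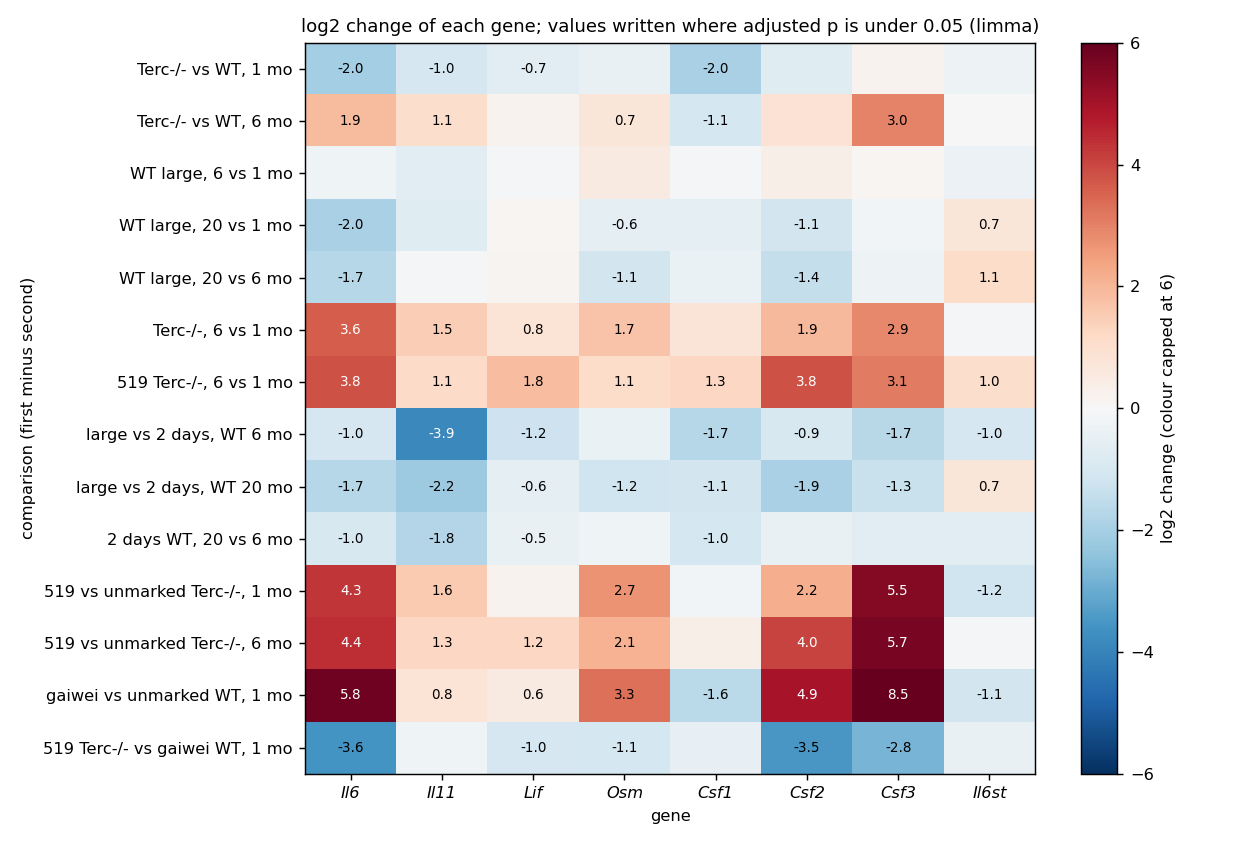
Differences of log2(scaled TPM + 1) for the 8 genes (columns) in the 14 pairwise comparisons (rows, first group minus second); red is higher and blue lower in the first group, and numbers stand where the adjusted p is under 0.05. The Lif change in gaiwei against unmarked wild type turns from 0.55 to -0.009 with TPM as deposited.

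Between the genotypes of unmarked large-cell cultures, Il6 and Il11 were called in opposite directions at the 2 ages, while Csf1 fell at both. At 1 month, 0 of the 8 genes rose and 4 fell (Il6, Il11, Lif and Csf1) in Terc-/- cultures, where 15.5% of all tested genes rose and 15.5% fell. At 6 months 4 rose (Il6, Il11, Osm and Csf3) and Csf1 fell, where 15.5% of genes rose and 13.2% fell. The calls at 6 months rest on the spread shared over the 10 groups, since with only these 2 groups in the fit none of the 5 was called (adjusted p 0.0655 to 0.325). The genotype difference changed upwards between the ages for 5 genes (Il6, Il11, Lif, Osm and Csf3) and downwards for 0 genes, against 2.93% and 0.817% of all genes. That count was 1 with only these 4 groups in the fit, when Il6 alone remained. The Lif change was also lost without 1-month Terc-/- library 1 or 3, 1-month wild-type library 4 or 6-month Terc-/- library 4 (adjusted p 0.0533 to 0.067), and the Osm change without 1-month library 3 of either genotype or 6-month Terc-/- library 4 (0.0549 to 0.067). The Csf2 change was called without 6-month wild-type library 2 (2.01, adjusted p = 0.0359), as was its 6-month genotype difference (1.27, 0.0178), and Osm fell at 1 month without wild-type library 4 (-0.61, 0.0385). Macrophage markers also differed by genotype, with 4 of 8 higher and 1 lower at 1 month and 5 higher at 6 months, and their part in the result was not tested. Adgre1, the macrophage surface marker F4/80, rose by 1.06 at 1 month and by 2.09 at 6 months.

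**Figure D3:**
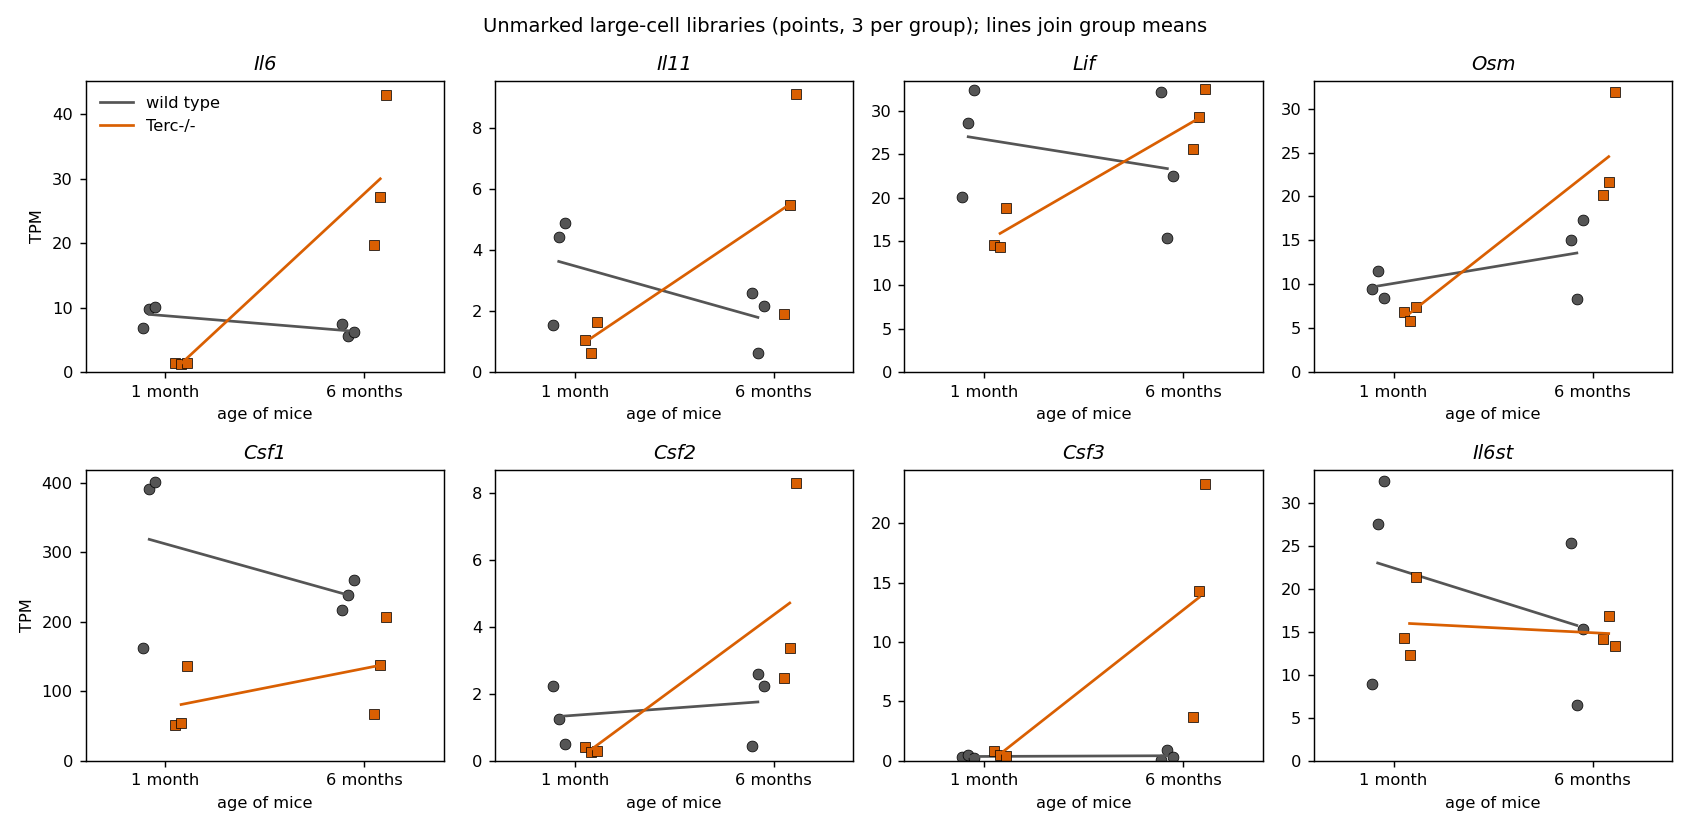
TPM of the 8 genes in unmarked large-cell cultures of wild-type (circles) and Terc-/- mice (squares) aged 1 and 6 months; points are the 3 libraries of each group and lines join group means. Il6 read 1.21 to 1.38 TPM in Terc-/- cultures at 1 month and 19.7 to 43.0 TPM at 6 months.

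Age comparisons within a genotype differed between wild type and Terc-/-. From 1 to 6 months, 6 of the 8 genes rose in unmarked Terc-/- cultures (Il6, Il11, Lif, Osm, Csf2 and Csf3) and 0 fell, where 3% of all genes rose and 1.02% fell; with only these groups in the fit 3 were called (Il6, Lif and Osm). All 8 rose in the 519 Terc-/- cultures, which share no library with the former, where 12.6% of genes rose and 11.2% fell; the Il11 call there was lost without 519 1-month library 3 or 6-month library 2 (adjusted p 0.0638 and 0.0688). As all 8 rose in the second comparison, the 6 genes of the first were necessarily among them, and this overlap adds nothing. The 6-month Terc-/- library numbered 4 was the highest of its group for 7 genes and the library numbered 1 the lowest for 7, and without the latter Csf1 rose as well (1.21, adjusted p = 0.0148). It also rose without the 1-month library numbered 4 (1.16, adjusted p = 0.0374). In wild-type large-cell cultures 0 of the 8 genes were called from 1 to 6 months, where 3.91% of genes rose and 5.66% fell, and Osm came nearest (0.54 ± 0.20, adjusted p = 0.0879), the 1 gene with an unadjusted p under 0.05 in limma; it was called without 6-month library 1 (0.59, adjusted p = 0.0453), and Il6st without 1-month library 1 as given above. From 1 to 20 months Il6st rose and Il6, Osm and Csf2 fell, where 8.58% of genes rose and 13.9% fell. From 6 to 20 months the same genes were called in the same directions, where 11.4% rose and 16.2% fell; these comparisons share the 20-month libraries. With only the 2 groups in the fit, 0 of the 4 were called from 6 to 20 months and only Il6 from 1 to 20 months, and Csf2 from 1 to 20 months was lost without any of the 6 libraries other than 1-month library 4 (adjusted p 0.0687 to 0.227). Csf2 from 6 to 20 months was lost without 6-month library 2 (0.0691).

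Between 2-day and large-cell cultures the cytokine genes fell while osteoclast genes rose. At 6 months 7 of the 8 genes fell, Osm being the exception (-0.39 ± 0.20, adjusted p = 0.102), though it was called with TPM as deposited (-0.78, 0.00428) and without large-cell library 4 (-0.53, 0.0473), and 0 rose, where 25% of all genes rose and 24.9% fell. Here Csf2 was called (adjusted p = 0.0452) but was at -0.45 (adjusted p = 0.305) without large-cell library 1, and was lost without 2-day library 1, 2 or 3 or large-cell library 4 (0.0505 to 0.114). With only these groups in the fit 4 genes were called (Il6, Il11, Lif and Csf1). At 20 months all 7 cytokine genes fell, Osm among them, and Il6st rose, where 17% of genes rose and 19.6% fell. The 10 osteoclast markers all rose at both ages. The change from 2 days to large cells differed between the ages upwards for Il11, Lif and Il6st and downwards for Osm, against 11.2% and 14.3% of all genes; the Lif and Osm differences were lost in most fits that left out a library. Lif kept its call without 20-month 2-day library 2, 20-month large-cell library 4 and 6-month large-cell library 1, and Osm without 20-month 2-day library 3, 20-month large-cell library 1, 6-month 2-day library 3 and 6-month large-cell libraries 1 and 2; the adjusted p was 0.05 to 0.116 for Lif and 0.062 to 0.0854 for Osm without the others. Between the 2-day cultures Il6, Il11, Lif and Csf1 were lower at 20 than at 6 months and 0 were higher, where 9.32% of genes rose and 8.23% fell. Of these, Il11 was called in every fit that left out a library. Lif was called in none of them (adjusted p 0.0665 to 0.177), and Il6 only without 6-month library 3 (0.0711 to 0.179 without the others). Stromal markers moved with the 2-day age comparison, where 5 of the 8 tested fell (Col1a1, Col1a2, Postn, Pdgfrb and Col3a1), and their part in the result was not tested.

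Marked libraries carried most of the cytokine genes at higher levels than unmarked ones. In gaiwei against unmarked wild type, 6 of the 8 genes rose and Csf1 and Il6st fell, where 24.7% of all genes rose and 22% fell; Lif and Il11 are called here only after scaling. Il11 (0.82 ± 0.33, adjusted p = 0.0421) was at 0.33 (0.437) with TPM as deposited and at 0.52 (0.226) without unmarked library 1, and its call was also lost without gaiwei library 1 (0.155) and with 4 other settings (0.0531 to 0.0889). In 519 against unmarked Terc-/- cultures at 1 month, 5 rose (Il6, Il11, Osm, Csf2 and Csf3) and Il6st fell, where 19.1% of genes rose and 14.8% fell. At 6 months, 6 rose, these 5 and Lif, and 0 fell, where 15.3% of genes rose and 13% fell; Il11 (1.25 ± 0.33) was at 0.77 (adjusted p = 0.0615) without unmarked library 1. The effect of the 519 mark grew with age for Lif and Csf2 and shrank for 0 genes, against 2.24% and 2.62% of all genes; with a pseudocount of 0.1 the Csf2 growth was 0.71 (adjusted p = 0.651) in place of 1.86. Against the gaiwei wild-type libraries, the 519 Terc-/- libraries of the same age had 0 of the 8 genes higher and 5 lower (Il6 by -3.58 ± 0.32, Csf2 by -3.49 ± 0.39, Csf3 by -2.80 ± 0.45, Osm by -1.06 ± 0.20 and Lif by -1.01 ± 0.16), where 1.55% of genes rose and 1.87% fell. The marks differ between the genotypes there, so genotype and mark cannot be told apart. The signed marked-minus-unmarked difference was lower in Terc-/- than in wild type for Il6, Csf2 and Csf3 and higher for Csf1, whose fall was nearer 0 in Terc-/- (-0.16 against -1.62), where it was lower for 5.03% and higher for 5.63% of all genes. With a pseudocount of 0.1 the difference between genotypes was -0.99 (adjusted p = 0.29) in place of -1.55 for Il6, and Csf2 lost its call (adjusted p = 0.0911). That difference for Csf1 (1.46 ± 0.45, adjusted p = 0.0388) was kept only without unmarked Terc-/- library 4 or unmarked wild-type library 1 (0.0507 to 0.12 without each of the others), and that for Il6 was lost without unmarked Terc-/- library 1, gaiwei library 1 or 2 or 519 library 1 or 2 (0.0536 to 0.0848).

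Of the 8 granulocyte markers, Retnlg and Elane were at 0 in every group, while S100a8 and Camp, 2 of the 3 markers tested, rose in all marked comparisons; the summed level was 1199 to 3295 TPM in marked and 2.99 to 212 TPM in other libraries. Of the 8 T and NK cell markers, Cd3g, Nkg7 and Ncr1 were at 0 in every group, but the others were not all at 0. The summed level of the list was 0.575 to 1.17 TPM in unmarked Terc-/- cultures at 1 month and 1.52 to 3.33 TPM at 6 months. It reached 3.08 TPM in wild-type large-cell cultures at 6 months and 2.99 TPM in 2-day cultures at 20 months. Of 6 mast cell and basophil markers, Fcer1a and Cpa3 were at 0 in every group, but the summed level of the list differed between groups: it was 0.128 to 0.264 TPM in unmarked 1-month Terc-/- cultures, 1.64 to 24.0 TPM in those at 6 months, 26.0 to 35.1 TPM in wild-type large-cell cultures at 20 months and 37.1 to 44.6 TPM in 2-day cultures at 6 months. Mcpt8, the 1 marker of that list tested, rose in Terc-/- cultures from 1 to 6 months, without and with the 519 mark. In the marked comparisons 9 or 10 of the 10 osteoclast markers fell and 3 to 6 of the 8 macrophage markers rose, among them Cd14, by 2.44 (519, 1 month), 2.37 (519, 6 months) and 3.47 (gaiwei). Of all genes, 15.3% to 24.7% rose and 13% to 22% fell in these comparisons. The part of these marker differences in the cytokine levels was not tested.

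Receptors of the IL-6 family other than gp130 were looked at as a list. Of 7 listed genes 4 were tested (Il6ra, Il11ra1, Osmr and Cntfr), while Lifr, Il27ra and Il31ra were below the filter. Il6ra, the IL-6 receptor, had group means between 4.63 and 10.5 TPM and was called only between the 2-day cultures (0.84 higher at 20 than at 6 months). Osmr, the oncostatin M receptor, had group means from 1.84 TPM in 519 1-month to 47.0 TPM in 6-month 2-day cultures. It fell in Terc-/- against wild type at 1 month (-1.59) and 6 months (-1.12), fell in gaiwei against unmarked wild type (-1.50) and rose at 20 months in wild-type large-cell cultures against 1 month (1.12) and 6 months (1.23). In the 519 Terc-/- cultures Osmr rose from 1 to 6 months (1.22), as did Osm, whereas in the other comparisons in which both were called they moved in opposite directions.

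Of the family's ligands outside the 8 genes, Ebi3, the gene of an IL-27 subunit, rose in Terc-/- cultures at 1 month (1.37) and 6 months (1.42) and in all 3 marked comparisons (0.98 to 2.76 on the log2 scale). Among the other growth factors, 3 of 7 were tested, and Tnfrsf11b, the RANKL decoy receptor osteoprotegerin, fell from 2 days to large cells at 6 months (-2.42) and 20 months (-1.99).

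The receptors of the colony-stimulating factors were all tested. Csf1r, the M-CSF receptor, was at group means of 262 to 734 TPM. All 5 (Csf1r, Csf2ra, Csf2rb, Csf2rb2 and Csf3r) rose in 6-month Terc-/- against wild-type cultures, with a list median of 1.01 against 0.016 for all genes, of which 15.5% rose, and 3 rose at 1 month, where 15.5% of all genes rose (Csf2ra by 1.32, Csf3r by 1.00 and Csf1r by 0.49). Over all genes, 3624 were called in the 6-month comparison, but 91 with only its groups in the fit. Listed genes, these receptors included, were counted only in the fit of all 30 libraries. From 2 days to large cells at 6 months 4 of the 5 rose, Csf3r being the exception, where 25% of all genes rose. Csf3r, the G-CSF receptor, was at group means of 2.60 to 23.7 TPM and rose with its ligand in the marked comparisons, by 2.86 in gaiwei wild type and by 1.55 and 1.67 in 519 Terc-/- cultures at 1 and 6 months. Csf2rb and Csf2rb2 are near-identical paralogs, so reads may be split between them.

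Most STAT3 and STAT5 feedback and response genes rose in the marked comparisons. Of 11 tested, 8 rose and 1 fell in gaiwei wild type (list median 1.35 against 0.014 for all genes, of which 24.7% rose and 22% fell). In 519 Terc-/- cultures 8 rose and 1 fell at 1 month (0.63 against 0.023, with 19.1% and 14.8% of all genes), and 9 rose and 1 fell at 6 months (1.15 against 0.008, with 15.3% and 13%). Socs3, the feedback inhibitor of gp130, was at 35.1 ± 3.73 TPM (SD, n = 3) in unmarked and 259 ± 43.0 TPM in gaiwei wild type, and at 37.4 ± 4.95 and 155 ± 7.68 TPM in unmarked and 519 Terc-/- cultures at 1 month. At 6 months it was at 111 ± 24.8 and 375 ± 34.8 TPM in unmarked and 519 Terc-/- cultures. Its rises in the 3 marked comparisons were 3.42, 2.52 and 2.07 on the log2 scale. Socs1, which inhibits JAK kinases, rose by 4.77 in gaiwei wild type and by 2.34 and 3.98 in 519 Terc-/- at 1 and 6 months. In Terc-/- cultures from 1 to 6 months, 4 of the 11 rose without a mark (Socs3 by 1.53, Pim1 by 1.02, Cish by 1.01 and Il4ra by 0.70) and 7 rose with the 519 mark, Socs3 and Cish among them but not Pim1 or Il4ra; 3% and 12.6% of all genes rose in these comparisons. From 2 days to large cells 6 fell and 1 rose at 6 months and 7 fell at 20 months, among them Socs2 (-1.67 and -1.68), where 24.9% and 19.6% of all genes fell.

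Genes of the signalling chain and of cytokine mRNA decay were tested too. Of 11 JAK-STAT genes, 8 rose and 0 fell in 6-month Terc-/- against wild-type cultures, where 15.5% of all genes rose and 13.2% fell. This count, too, was made only in the fit of all 30 libraries. With only the groups compared in the fit, the genes called there went from 3624 to 91. In gaiwei against unmarked wild type 7 rose, among them Jak2 (1.48), and 1 fell, where 24.7% of all genes rose and 22% fell. Jak2 also rose in 519 Terc-/- cultures at 1 month (1.14) and 6 months (1.82). Of 10 regulators of cytokine mRNA decay, Zc3h12a (Regnase-1, an RNase that cleaves Il6 mRNA) and Arid5a (which protects Il6 mRNA) both rose in the 3 marked comparisons, by 1.53 to 2.81 and by 1.33 to 2.06. Both also rose in Terc-/- cultures from 1 to 6 months, by 0.80 and 1.27 without a mark. Of 8 genes that respond to the M-CSF receptor, 1 rose and 1 fell in 1-month Terc-/- against wild-type cultures, near the 15.5% of all genes in each direction, and 5 rose and 1 fell in gaiwei against unmarked wild type, where 24.7% rose and 22% fell.

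**Figure D4:**
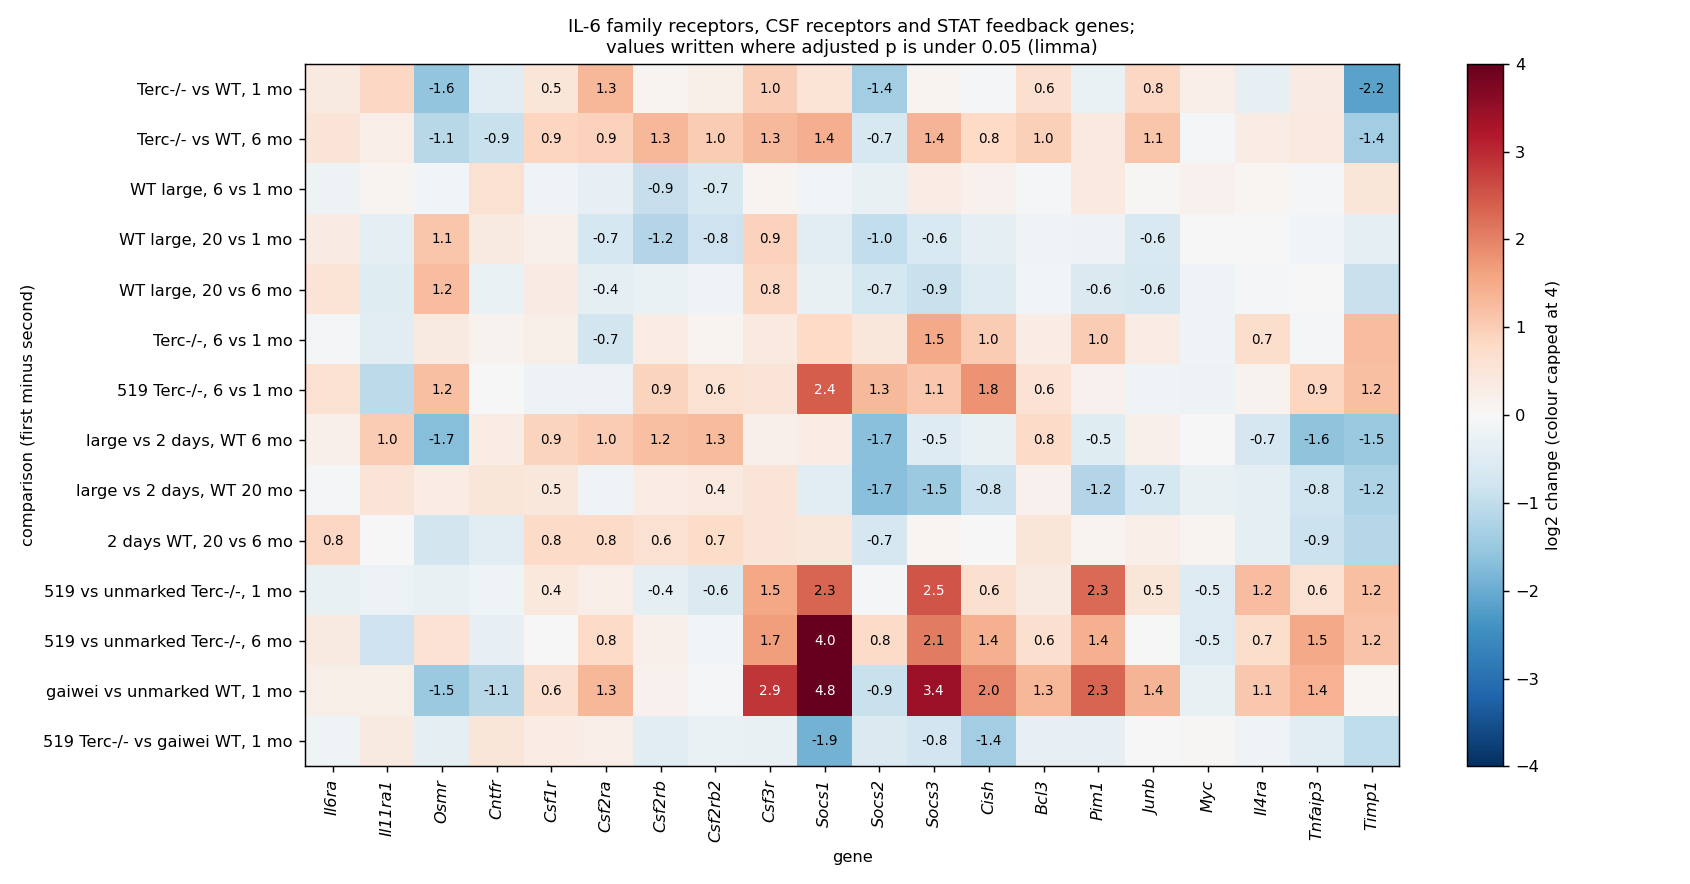
Differences of log2(scaled TPM + 1) of the tested IL-6 family receptors, colony-stimulating factor receptors and STAT feedback genes (columns) in the 14 pairwise comparisons (rows, first group minus second); numbers stand where the adjusted p is under 0.05. Socs1, Socs3 and Pim1 rose in the 3 rows of marked against unmarked libraries.

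The genes whose group means ran most like each member, by Pearson's r of log2 levels over the 10 groups among 9217 genes averaging 5 TPM or more, fell into different kinds. For Il6 they were Mmp13 (0.983), a collagenase, Arg2 (0.978) and Il1a (0.974), the gene of interleukin-1 alpha. Osm was most like Cxcl2 (0.994), a neutrophil chemokine, Il1a (0.989) and Ube2z (0.988), and Csf3 was most like U90926 (0.996), Hcar2 and Ube2z (both 0.991). Csf2 was most like Ereg (0.977), the gene of epiregulin, Il1a (0.965) and Arg2 (0.963). Csf1 was most like Loxl4 (0.99), a lysyl oxidase of matrix-forming cells, Tubb2b and Vgll3 (both 0.983). Il11 was most like Bicd2 (0.963), Btbd10 and the AP-1 gene Fosl1 (both 0.954), Lif like Stk38l (0.959), Cfap43 (0.946) and Adamtsl4 (0.945), and Il6st like Klf9 (0.971), Usp40 (0.97) and Ccser2 (0.968). These are descriptions over 10 points that share the marked and 2-day groups.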

How the data were processed

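The authors counted reads with HTSeq against mm10, per the submitters' processing notes, which give no version; no source used here names the aligner. The deposited tables hold TPM: the headers name no unit, but each of the 30 columns sums to 1000000, and the lowest values fall with exon length (rho -0.866 over 5412 genes). TPM keep no depth, so the depth per library is unknown, and 11270 to 12937 genes reached 1 TPM per library. Gene IDs were matched to symbols by GENCODE M21 (45143 of 45706). Libraries were brought to a common scale by log ratios averaged after trimming (30% of ratios, 5% of levels, no weights). Then log2(scaled TPM + 1) of the 12614 genes averaging 1 TPM or more was fitted with limma 3.58.1 (R 4.3.3), with 10 group means, trend and robust settings; called means a Benjamini-Hochberg adjusted p under 0.05 over all tested genes. There were 14 pairwise and 4 interaction contrasts. Without scaling, the median log2 change of all genes was -0.391, -0.259 and -0.488 in the 519 1-month, 519 6-month and gaiwei against unmarked comparisons, and -0.36 in large against 2-day cultures at 6 months; with it, all medians were within 0.042 of 0. The script was tested on simulated data. The members and lists were chosen with earlier results of these data known. Members were named in every comparison, up to 4 called genes of each list by smallest adjusted p, and the 3 genes most alike by r. Alternatives were other scaling, pseudocount, filter, variance and replicate settings. A list entry, Flt3l, matched no single gene. Some results of the listed genes are not reported here.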

Additional observations from a re-analysis of the deposited data

Results flagged for a closer look

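Effects of the same contrast differed between ages, genotypes or marks for the following genes, by an interaction term in limma over all tested genes, on the log2 scale. From 2 days to large cells, the change at 20 months minus that at 6 months was 1.67 for Il11, 0.63 for Lif, -0.81 for Osm (-0.53, adjusted p = 0.207, with TPM as deposited) and 1.74 for Il6st. Il6st fell at 6 months and rose at 20 months, but the 20-month rise was not called with TPM as deposited (0.64, adjusted p = 0.167) or without 4 of the 6 libraries, 2-day library 3 or 4 or large-cell library 1 or 4 (0.0524 to 0.0784).

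The Terc-/- minus wild-type difference was higher at 6 months than at 1 month by 3.91 for Il6, 2.09 for Il11, 0.90 for Lif, 1.17 for Osm and 2.77 for Csf3. With only the groups compared in the fit, this change was called for Il6 alone (adjusted p 0.133 to 0.264 for the other genes). Il6 and Il11 turned from lower to higher in Terc-/- cultures between these ages, while Csf1 was lower at both. The Il11 libraries overlapped at both ages. The 6-month differences of Il6, Il11 and Csf1 were not called with only those groups in the fit (adjusted p 0.0655, 0.325 and 0.309). The 1-month wild-type group is the group with Xist, and the part of this in the result was not tested.

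The difference between 519 and unmarked Terc-/- cultures was larger at 6 months than at 1 month by 1.00 for Lif and by 1.86 for Csf2 (0.71, adjusted p = 0.651, with a pseudocount of 0.1). At 1 month, the difference between marked and unmarked libraries in Terc-/- minus that in wild type was -1.55 for Il6 (-0.99, adjusted p = 0.29, with a pseudocount of 0.1), 1.46 for Csf1, -2.76 for Csf2 (call lost with that pseudocount, adjusted p = 0.0911) and -3.01 for Csf3. The marks of the 2 genotypes differ, so genotype and mark cannot be told apart there.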

How the results depend on the processing

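Each of the 90 member results called and 54 not called, over 14 pairwise and 4 interaction contrasts, was recomputed under 7 other settings and without each library. Of 630 values of the called results under other settings 553 kept direction and call, 76 lost the call and 1 reversed; of 630 without a library 522 kept both and 108 lost the call. Lif in gaiwei against unmarked wild type went from 0.55 to -0.009 with TPM as deposited. Results not called became called in 10 of 378 values under other settings and in 10 of 426 without a library. With only the groups compared in the fit, which has fewer samples, the number of the 8 genes called went from 5 to 0 (Terc-/- against wild type, 6 months), 4 to 1 (wild type, 20 against 1 month), 4 to 0 (20 against 6 months), 6 to 3 (Terc-/-, 6 against 1 month), 7 to 4 (large cells against 2 days, 6 months) and 5 to 1 (genotype difference between ages). With a variance for each group it went to 0 (genotype, 6 months), 0 (20 against 6 months), 4 (large cells against 2 days, 6 months) and 1 (genotype difference between ages), and from 4 to 1 for the age difference in the change from 2 days to large cells. With TPM as deposited, 20 against 1 month in wild type had 2 calls. With no filter it had 1, 2-day cultures between ages had 2 of 4, the age difference from 2 days to large cells 2 of 4, the 519 difference between ages 1 of 2, and the marked difference between genotypes 2 of 4. With a pseudocount of 0.1 the last had 2 of 4 and the 519 difference 1 of 2. For the weaker calls under these settings the cause was not tested.

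Without each library in turn, counts ran from 3 to 5 for Terc-/- against wild type at 1 and at 6 months, 0 to 1 for 6 against 1 month, 1 to 4 for 20 against 1 month and 3 to 4 for 20 against 6 months in wild type, 5 to 7 and 7 to 8 for Terc-/- with age without and with the 519 mark, 5 to 7 and 6 to 8 for large cells against 2 days at 6 and 20 months, and 1 to 2 for 2-day cultures between ages. They were 6, 5 to 6 and 7 to 8 for marked against unmarked (519 at 1 month, at 6 months, gaiwei) and 5 for 519 against gaiwei. For the interactions they were 2 to 5 (2 days to large cells by age), 3 to 6 (genotype by age), 1 to 2 (519 by age) and 2 to 4 (mark by genotype).

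Same-numbered libraries did not deviate together throughout (correlations -0.596 to 0.327), and of 5 comparisons sharing 3 numbers, none had every pair over 0.1. Among those sharing 2 numbers, both pairs were over 0.1 in unmarked Terc-/- with age (0.327 and 0.169). The same held in gaiwei against unmarked wild type (0.245 and 0.23). The numbers were not taken as pairs. With the replicate block 87 of 90 calls held; Osm from 1 to 20 months (adjusted p = 0.0552), Osm in the 2-day interaction (0.0659) and Csf2 in the 519 interaction (0.0545, leaving 1 of 2 calls) did not. TPM keep no read depth, so no limit from depth can be given.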
